A study of Homo sapiens with 9 samples.

Results

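Batch 4 is 1 of the 3 batches of BEAS-2B cultures in this RNA-seq study. The sample labels give each library a batch number of 2, 3 or 4, and batch 4 holds 3 of the 9 libraries: untreated control cells, cells exposed to PG/VG and cells exposed to EC. BEAS-2B is a human bronchial epithelial cell line immortalized with an adenovirus-SV40 hybrid virus and grown here in serum-containing medium. PG/VG stands for condensed aerosol of a carrier liquid made of propylene glycol and vegetable glycerine, EC for that of a Virginia tobacco flavored e-liquid with 18 mg/mL nicotine. Both exposures lasted 24 h at a 2% (v/v) dilution. Batches 2 and 3 hold 1 library of each treatment too, 6 in all, and a library of batch 4 was compared with libraries of the same treatment. Batch 4 is a single batch, so its 3 libraries are not independent draws of batches, and the p-values below measure the spread between libraries only. The labels say no more about a batch than its number, and the culture, the RNA extraction and the library preparation of batch 4 cannot be told apart.

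The transcriptome of a cell line follows the state of its culture. Cells short of amino acids or under stress raise the transcription factor ATF4, which switches on amino acid synthesis, transport and tRNA charging genes. Cells short of sterols release SREBP factors that switch on cholesterol synthesis and uptake, DNA damage and growth arrest act through p53 and its target CDKN1A, and crowding or a soft substrate changes actin and the targets of the coactivator YAP.

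With a treatment term in the model, 6650 of 16030 genes tested (41.5%) differed between batch 4 and batches 2 and 3 at an adjusted p under 0.05 by edgeR's quasi-likelihood test, 3274 (20.4%) higher and 3376 (21.1%) lower in batch 4, and 7780 had an unadjusted p under 0.05. These percentages are the background for every count of list members below. The called genes spanned log2 fold changes of −5.22 to 3.88, and their median absolute change was 0.41, and 506 rose and 382 fell past 1. Batches 2 and 3 differed from each other far less. In edgeR 0 genes (0%) passed between them, 551 had an unadjusted p under 0.05, and DESeq2 called 1. The SD of the log2 fold change over all genes was 0.52 for batch 4 vs. batches 2 and 3 and 0.22 for batch 3 vs. batch 2. Batch 4 differed in 5677 genes from batch 2 alone and in 5510 from batch 3 alone, 2 comparisons that share the batch 4 libraries. Of the 6650 called genes, 6023 had a batch 4 library beyond the libraries of both other batches in each of the 3 treatments, which 7329 (45.7%) of all genes tested did. Libraries held 16168260 to 24917838 counts on genes, those of batch 4 17882770 to 22899653, and the mitochondrial genome took 1.32% to 1.92% of the counts.

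**Figure D1:**
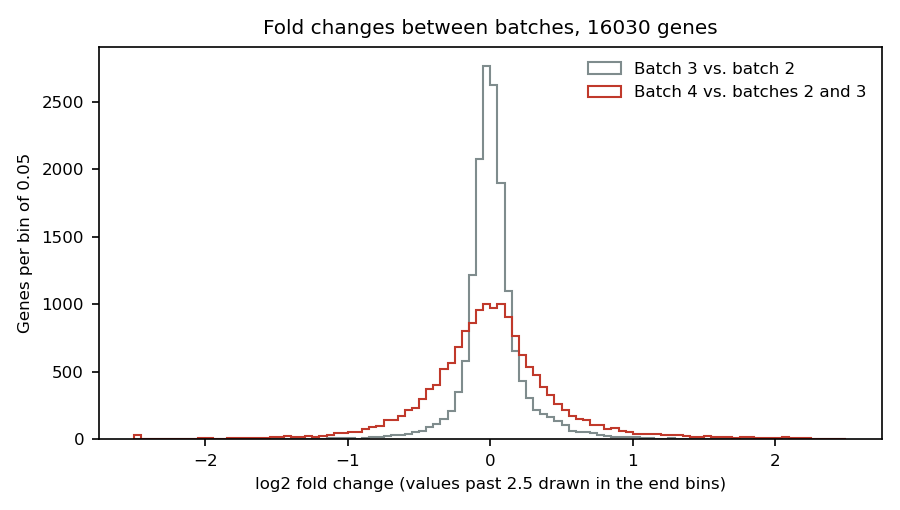
Number of genes (y axis) by log2 fold change in bins of 0.05 (x axis), for batch 4 vs. batches 2 and 3 and for batch 3 vs. batch 2, over 16030 genes. The batch 4 distribution is wider (SD 0.52 against 0.22), and both are centred near 0.

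Markers of the line were read before its state. The simple epithelial keratins KRT8, KRT18 and KRT7 were abundant in all 9 libraries, while the epithelial surface genes EPCAM and CDH1 were near the floor. Of 6 airway basal markers, KRT5, KRT14 and TP63 had at most 5 counts in a library and did not pass the count filter. The 2 tested, NGFR and KRT15, rose in batch 4 (log2 fold changes 0.39 and 0.89), and each lost its call under 5 alternatives. The 6 summed to 5.63 to 16.1 CPM in batch 4 and 4.03 to 9.66 CPM in the others. Secretory cell markers summed to 0.169 to 0.643 CPM in batch 4 and 0.186 to 0.383 CPM in the other 6 libraries, with BPIFA1 at 0 in all. The 6 pan-epithelial markers summed to 1459.6 to 1776 CPM in batch 4 and 2043 to 2844 CPM in the others, and 4 of 6 fell. Of 8 fibroblast markers 3 were tested, and all 3 fell, with sums of 179 to 184 CPM in batch 4 against 271 to 286 CPM, whereas COL1A2 and DCN had at most 10 counts in any library. Endothelial markers summed to 6.84 to 10.1 CPM in batch 4 and 5.28 to 7.06 CPM in the others, and leukocyte markers to 3.77 to 6.18 and 5.53 to 9.66 CPM with CD3E at 0. Ciliated markers summed to 842 to 913 CPM in batch 4 and 762 to 832 CPM in the others, almost all of it TUBB4B, which did not pass. Of the 5 ciliated markers tested 3 fell (TPPP3, DNAH5 and CAPS) and 1 rose (PIFO), all at 5.64 CPM or less. Smooth muscle markers, which BEAS-2B cells share through TAGLN, summed to 153 to 199 CPM against 324 to 532 CPM. In bulk RNA, fewer cells of a kind and less RNA per cell cannot be told apart.

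The steepest rises in batch 4 included secreted and signalling proteins of low to moderate level. Values of batch 4 are given here and below in the order control, PG/VG, EC, in CPM on TMM-scaled library sizes, against the range of the other 6 libraries. LIPG, a secreted endothelial lipase, stood at 8.56, 10.4 and 19.2 CPM in batch 4 and at 0.985 to 1.66 CPM (median 1.29) in the others (log2 fold change 3.29, SE 0.15, adjusted p = 1.22e-15 in edgeR). The gene lies at chr18:49560699-49599185 (GRCh38). RNASE7, an antimicrobial ribonuclease of epithelia, had 3.996, 4.72 and 5.902 CPM against 0.127 to 0.711 CPM (median 0.584, log2 fold change 3.23, SE 0.22). The cytokine gene IL24, of whose exon length 41.6% overlaps other genes, had 5.23, 3.302 and 11.5 CPM against 0.109 to 1.82 CPM (median 0.469, log2 fold change 3.22, SE 0.21). The separation of batch 4 from the other batches was part of the rule that named these genes. STC1, the secreted glycoprotein stanniocalcin-1, was at 112, 115 and 116 CPM in batch 4, nearly equal in the 3 treatments, and at 12.9 to 27.2 CPM (median 19.3) elsewhere (log2 fold change 2.59, SE 0.13). ESM1, an endothelial proteoglycan (log2 fold change 2.65, SE 0.15), and GREB1, an estrogen-responsive growth regulator (log2 fold change 2.61, SE 0.12), rose by a similar amount. The other large rises named by the rule were SH2D2A, PTPRR, MPP4, CD22, NRROS and SERPINB2, with log2 fold changes of 2.49 to 2.94. SERPINB2, the plasminogen activator inhibitor 2 gene, had 6.25, 4.37 and 5.85 CPM against 0.0547 to 2.98 CPM (median 0.4702, log2 fold change 2.61, SE 0.57, adjusted p = 0.0124 in edgeR), and without the batch 4 control library its adjusted p was 0.222.

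The steepest falls left several genes close to undetected. INHBE, which encodes the inhibin beta E chain and is induced by ATF4, had 0.338, 0.343 and 0.198 CPM in batch 4 and 2.62 to 5.26 CPM (median 4.19) in the others (log2 fold change −3.73, SE 0.26, adjusted p = 3.7e-12 in edgeR). It lies at chr12:57452323-57459280 (GRCh38), and 16.4% of its exons overlap other genes. ECM2, an extracellular matrix protein, had 0.788, 0.6004 and 0.347 CPM against 4.28 to 9.78 CPM (median 6.48, log2 fold change −3.53, SE 0.20). OLR1, the scavenger receptor for oxidized LDL, had 2.53, 2.53 and 4.27 CPM against 18.5 to 26.7 CPM (median 22.6, log2 fold change −2.84, SE 0.17). Here too the separation of the batches was part of the rule. PAPPA2, a protease that cleaves IGF binding proteins (log2 fold change −3.14, SE 0.38), and ST6GALNAC3, a sialyltransferase (log2 fold change −2.91, SE 0.16), fell too. TM6SF1, KLHDC7B, OSCAR, KRT86, SAMD11, PTPRQ and STMND1 fell by 2.54 to 3.71 on the log2 scale, with 41.3% of the TM6SF1 exons and 18.8% of the KRT86 exons shared with other genes.

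Among genes with a mean of at least 100 CPM, the collagenase gene MMP1 rose most, with 1158, 676 and 821 CPM against 141 to 232 CPM (median 212, log2 fold change 2.18, SE 0.07). NEU1, the lysosomal sialidase, had 195, 204 and 251 CPM against 49.8 to 91.4 CPM (median 55.2, log2 fold change 1.77, SE 0.07). TGM2, a protein cross-linking transglutaminase, had 413, 412 and 319.5 CPM against 106 to 144 CPM (median 115, log2 fold change 1.66, SE 0.06). SCD, GNPDA1, MDM2, CDCP1 and SPHK1 followed with log2 fold changes of 1.38 to 1.57. The abundant genes that fell most were PCK2, the serine and one-carbon enzyme genes ALDH1L2, PSAT1 and PHGDH, the cystine transporter gene SLC7A11, the branched-chain aminotransferase gene BCAT1, the keratin gene KRT17 and the actin-binding protein gene TAGLN. PCK2, the mitochondrial phosphoenolpyruvate carboxykinase, had 73.3, 59.95 and 55.2 CPM against 198 to 299.9 CPM (median 263, log2 fold change −2.04, SE 0.07, adjusted p = 3.22e-18 in edgeR). KRT17, a stress keratin, had 47.7, 48.03 and 80.05 CPM against 146 to 237 CPM (median 174, log2 fold change −1.64, SE 0.08). Every one of the 16 abundant genes kept its call and direction under all alternatives tried. These genes were picked as the largest called changes, and separation of the batches within each treatment was part of the rule. Their stability was therefore largely set beforehand and is no independent check.

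**Figure D2:**
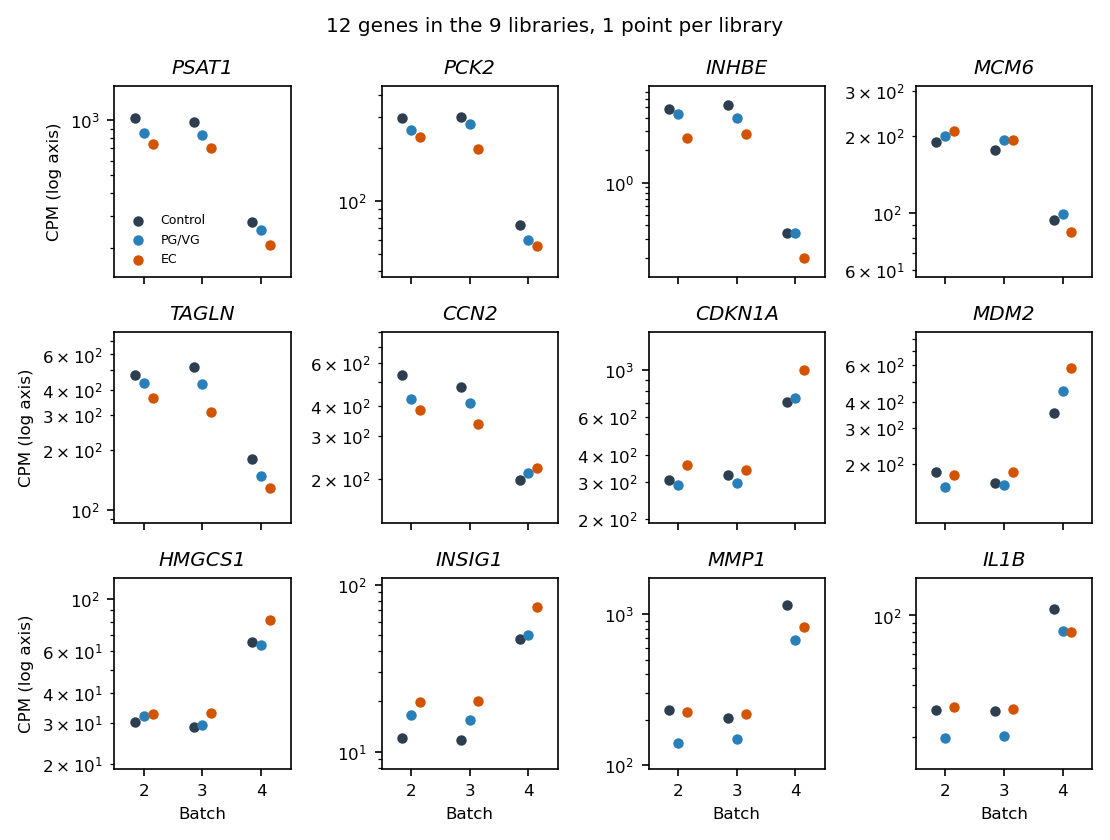
CPM on a log axis (y axis) in each of the 9 libraries by batch (x axis) for 12 genes, 1 point per library, colored by treatment. PSAT1, PCK2, INHBE, MCM6, TAGLN and CCN2 are lower and CDKN1A, MDM2, HMGCS1, INSIG1, MMP1 and IL1B higher in all 3 batch 4 libraries than in the other 6, while batches 2 and 3 lie together. PSAT1, PCK2, INHBE, TAGLN, MDM2 and MMP1 were named by a rule that required this separation within each treatment.

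Gene lists written from general knowledge were then read by the number of members called in each direction and by their median log2 fold change. The lists were chosen with earlier results of these data known. The median of all genes tested was −0.0051. Target genes of ATF4 had the lowest median (−1.02), and cholesterol synthesis genes (0.72), p53 targets (0.86) and replication-dependent histone genes (0.87) the highest of the lists with more than 5 tested members. For the comparison of batch 3 with batch 2, the medians of these 4 lists lay between −0.04 and 0.01.

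**Figure D3:**
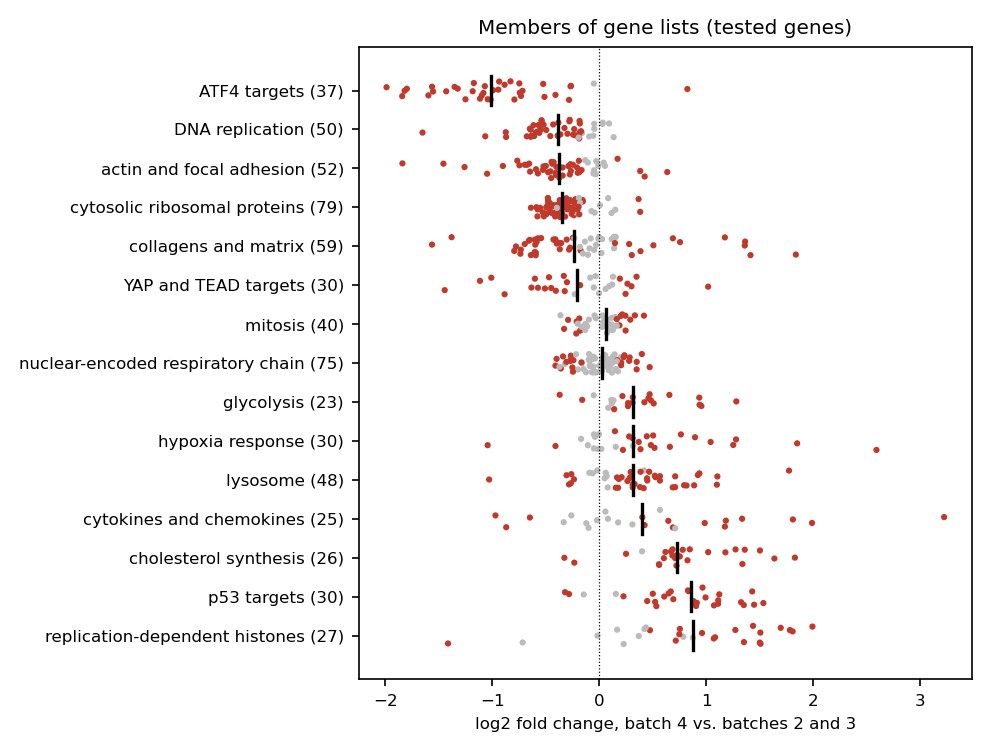
Log2 fold change of batch 4 vs. batches 2 and 3 (x axis) for the tested members of 15 gene lists (y axis, number tested in parentheses). Red points passed an adjusted p under 0.05, grey points did not, and the black bar is the list's median, from −1.02 for ATF4 targets to 0.87 for replication-dependent histones.

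ATF4 targets were lower in batch 4 almost as a whole. Of 37 tested, 35 fell and 1 rose, against a background of 21.1% and 20.4%, with a median of −1.02. Beyond both other batches in all 3 treatments lay 36, against 45.7% of all genes tested. In the serine pathway, PSAT1, the phosphoserine aminotransferase, had 279, 250.3 and 208 CPM in batch 4 against 704 to 1025 CPM (median 844, log2 fold change −1.80, SE 0.06, adjusted p = 3.22e-18 in edgeR), and PHGDH, which commits glucose carbon to serine, had 226, 228 and 215 CPM against 592 to 698 CPM (median 663, log2 fold change −1.55, SE 0.06). The batch 4 values of both genes lay far below the range of the other batches, and separation within each treatment was part of the rule that named them. ALDH1L2, a mitochondrial folate enzyme, had 44.5, 53.9 and 42.3 CPM against 150.3 to 214 CPM (median 187, log2 fold change −1.99, SE 0.08). PYCR1, which makes proline, had 42.8, 32.8 and 27.6 CPM against 96.1 to 161 CPM (median 117, log2 fold change −1.84, SE 0.07), with 29.7% of its exons overlapping other genes. ASNS, asparagine synthetase, had 3.15, 1.97 and 2.08 CPM against 6.19 to 10.2 CPM (median 8.43, log2 fold change −1.82, SE 0.17), with an overlap of 49.3%. SLC7A11, which imports cystine for glutathione synthesis, had 129.6, 155 and 148 CPM against 359 to 450.4 CPM (median 435, log2 fold change −1.56, SE 0.07). SLC7A5, the large neutral amino acid carrier, had 935, 1101 and 1542 CPM against 2033 to 2574 CPM (median 2168, log2 fold change −0.94, SE 0.07). Synthesis enzymes and transporters of the list fell in the same libraries. In each of these genes the highest batch 4 value lay below the lowest of the others. All were picked from called falls, and for ALDH1L2 and SLC7A11 too separation was part of the naming rule. Against this direction, ATF5, a transcription factor of the same family, rose, with 42.8, 41.98 and 52.8 CPM against 19.6 to 30.7 CPM (median 27.2, log2 fold change 0.82, SE 0.08). The count of 35 lower members was 34 or 35 under every alternative and with each library left out. Genes of the unfolded protein response, another branch of stress signalling, did not follow: 10 of 24 rose and 3 fell. Its chaperone HSPA5 had 806, 858 and 725 CPM against 787 to 864 CPM (median 823, log2 fold change −0.05, SE 0.06, adjusted p = 0.514 in edgeR), while XBP1, a transcription factor of that response, had 114, 103 and 100.4 CPM against 211 to 275 CPM (median 238, log2 fold change −1.18, SE 0.06).

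The sequences upstream of the ATF4 targets and of the cholesterol synthesis genes were searched because both lists moved together. RefSeq (GRCh38.p14) promoter entries were found for 30 of the 37 ATF4 targets, and the ATF4 response element TGATGNAA was sought on both strands in the 250 bases before the gene start. It was found upstream of 3 of the 30 (10%) and of 161 of 11416 tested genes with an entry (1.41%). The sterol response element TCACNCCAC was found upstream of 1 of 19 cholesterol synthesis genes with an entry (5.26%) and of 96 of the 11416 (0.841%). The 4 matches are shown 5′ to 3′ on the strand of the gene in windows of 30 bases, with the match in capitals (TTGCATCA is the element read on the other strand).
AARS1, chr16:70289675-70289704, minus strand: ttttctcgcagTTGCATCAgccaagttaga
ASNS, chr7:97872458-97872487, minus strand: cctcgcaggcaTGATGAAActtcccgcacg
CHAC1, chr15:40953251-40953280, plus strand: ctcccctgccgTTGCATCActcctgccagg
SREBF2, chr22:41832962-41832991, plus strand: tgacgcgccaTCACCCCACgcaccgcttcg
AARS1, CHAC1 and SREBF2 were named for these matches, after their values were seen. The alanyl-tRNA synthetase gene AARS1 fell in batch 4 (log2 fold change −0.53, SE 0.06), as did CHAC1, a glutathione-degrading enzyme (log2 fold change −1.25, SE 0.07), and SREBF2, which encodes a sterol-responsive SREBP factor, rose (log2 fold change 0.56, SE 0.06). A match describes the letters in this window and says nothing of binding.

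Sterol genes were higher in batch 4. Of 26 cholesterol synthesis and uptake genes, 23 rose and 2 fell (background 20.4% and 21.1%), with a median of 0.72. Beyond both other batches in all 3 treatments lay 24, against 45.7% of all genes tested. INSIG1, which holds SREBP factors in the endoplasmic reticulum, had 47.5, 50.004 and 72.95 CPM against 11.8 to 20.2 CPM (median 15.97, log2 fold change 1.83, SE 0.07, adjusted p = 9.74e-17 in edgeR). It lies at chr7:155297776-155310235 (GRCh38). All 3 batch 4 values lay above the range of the others, and the EC library was highest. HMGCS1, an early enzyme of the mevalonate pathway, had 65.6, 64.1 and 81.5 CPM against 28.7 to 33.1 CPM (median 31.1, log2 fold change 1.18, SE 0.07, overlap 37.7%). DHCR7, the last step to cholesterol, had 96.5, 100.3 and 167 CPM against 38.4 to 44.8 CPM (median 42.9), and HSD17B7, another late enzyme, rose as well (log2 fold change 1.36, SE 0.09). The enzymes GGPS1 and PMVK fell by 0.33 and 0.23, and PMVK lost its call under 12 of 22 alternatives. Fatty acid synthesis genes rose in smaller number, 12 of 23 with 3 lower, or 1 lower without the PG/VG library of batch 4. SCD, which desaturates stearate, had 385, 498 and 705 CPM against 146 to 206 CPM (median 179.97, log2 fold change 1.57, SE 0.07), while FASN, the fatty acid synthase, rose less (log2 fold change 0.79, SE 0.06) and ME1, which supplies NADPH, fell (log2 fold change −0.52, SE 0.07).

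Most p53 targets were higher in batch 4 as well. Of 30 tested, 26 rose and 2 fell (background 20.4% and 21.1%), with a median of 0.86. Beyond both other batches in all 3 treatments lay 27, against 45.7% of all genes tested. CDKN1A, the p21 inhibitor of cyclin-dependent kinases, had 709, 739 and 1002 CPM in batch 4 against 288 to 360.2 CPM (median 312, log2 fold change 1.35, SE 0.06, adjusted p = 3.9e-16 in edgeR), and lies at chr6:36676460-36687337 (GRCh38). MDM2, the ubiquitin ligase that degrades p53, had 352, 452 and 579.5 CPM against 155 to 183 CPM (median 169, log2 fold change 1.43, SE 0.09). Each batch 4 value of these 2 genes exceeded each value of the other batches, and the EC library was highest. For MDM2, separation within each treatment was part of the rule that named it. BTG2, an antiproliferative gene, had 65.1, 85.4 and 131 CPM against 25.5 to 38.96 CPM (median 31.4, log2 fold change 1.53, SE 0.09), and TP53INP1, a stress-induced p53 cofactor, 52.6, 73.98 and 79.997 CPM against 21.2 to 30.7 CPM (median 24.95, log2 fold change 1.45, SE 0.07). PLK2 and SESN2 fell, by 0.32 and 0.28. SESN2 is also on the ATF4 list. FOXO and quiescence targets moved in both directions, with 8 of 24 higher and 5 lower. The glucose-regulated arrestin gene TXNIP was at 103, 120.1 and 125 CPM against 131 to 171 CPM (median 165, log2 fold change −0.44, SE 0.08).

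DNA replication genes were lower in batch 4. Mitosis genes were called at shares near or below those of all genes, 22.5% higher and 15% lower against 20.4% and 21.1%. Of 50 replication genes 40 fell, and the other 10 did not pass, with a median of −0.39. E2F2, a transcription factor of S phase entry, had 7.598, 10.3 and 10.02 CPM against 26.6 to 32.4 CPM (median 29.3, log2 fold change −1.65, SE 0.09), and E2F1 fell less (log2 fold change −0.87, SE 0.07). Of the replicative helicase, MCM6 had 93.7, 99.6 and 84.3 CPM against 176 to 209.7 CPM (median 193, log2 fold change −1.07, SE 0.07), while MCM5 (log2 fold change −0.87, SE 0.06) and MCM2 (log2 fold change −0.50, SE 0.06) fell by smaller amounts. Their adjusted p ranged from 3.72e-14 to 1.96e-07 in edgeR. For mitosis genes the median was 0.058 (0.00044 to 0.102 with a library left out), with 9 of 40 higher and 6 lower, and the counts turned on single libraries: 4 were higher without the PG/VG library of batch 4, and 1 was lower without its EC library. CENPE and CENPF, which encode kinetochore proteins, rose (log2 fold change 0.42, SE 0.07, and log2 fold change 0.33, SE 0.08). CCNB1, the mitotic cyclin, had 344, 338 and 243 CPM against 272 to 306 CPM (median 288), and MKI67, the Ki-67 proliferation antigen, 499.5, 548 and 409 CPM against 368 to 747 CPM (median 582), and neither passed (adjusted p = 0.386 and 0.459 in edgeR), though CCNB1 was called without the EC library of batch 4 and MKI67 against batch 3 alone. Replication-dependent histone genes, whose mature transcripts mostly lack a poly(A) tail while the libraries were made by poly(A) selection, showed the opposite sign to the replication genes. Of 52, 27 passed the count filter, and 17 of these rose and 1 fell, with a median of 0.87. H2BC11 had 27.1, 26.3 and 27.1 CPM against 5.3999 to 7.696 CPM (median 6.93, log2 fold change 1.99, SE 0.09), and H4C8 14.5, 13.6 and 12.5 CPM against 3.39 to 4.47 CPM (median 3.81, log2 fold change 1.81, SE 0.12). Near-identical copies of histone genes can share reads, which the authors' counting left out where they mapped to more than 1 place.

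Actin and focal adhesion genes were lower in batch 4. Of 52, 39 fell and 4 rose (background 21.1% and 20.4%), with a median of −0.37. TAGLN, the actin-binding transgelin, had 181, 148 and 129 CPM against 309 to 518 CPM (median 428, log2 fold change −1.46, SE 0.07), with 47.8% of its exons overlapping other genes. MYL9, a regulatory myosin light chain, had 339.9, 293 and 275 CPM against 620.2 to 799 CPM (median 730.4, log2 fold change −1.26, SE 0.07), and ENAH, which extends actin filaments, 193, 211 and 181 CPM against 352 to 457 CPM (median 408, log2 fold change −1.05, SE 0.06). In all 3 genes the batch 4 values lay below those of the other batches, which for TAGLN was, within each treatment, part of the rule that named it. ACTA2, smooth muscle actin, went the other way, with 17.6, 20.2 and 22.9 CPM against 11.7 to 13.98 CPM (median 13.1, log2 fold change 0.63, SE 0.09, overlap 36.2%). Targets of YAP and TEAD factors fell in 15 of 30 and rose in 6, and rose in 3 without the EC library of batch 4. CCN2, the connective tissue growth factor, had 197, 210.4 and 221 CPM against 336 to 536 CPM (median 418, log2 fold change −1.01, SE 0.10, adjusted p = 3.49e-06 in edgeR), and its relative CCN1 fell less (log2 fold change −0.64, SE 0.06). NT5E, the ecto-nucleotidase CD73, rose instead, with 283, 281 and 249.8 CPM against 115 to 148 CPM (median 134, log2 fold change 1.02, SE 0.06).

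Matrix genes fell more often than they rose, 30 against 12 of 59, with a median of −0.23. BGN, the proteoglycan biglycan, had 23.1, 24.4 and 23.9 CPM against 65.3 to 77.6 CPM (median 68.6, log2 fold change −1.56, SE 0.07), and COL1A1, a chain of type I collagen, 51.5, 63.9 and 58.4 CPM against 86.5 to 107 CPM (median 98.4, log2 fold change −0.73, SE 0.06). THBS1, thrombospondin-1, fell by a similar amount (log2 fold change −0.80, SE 0.06). FN1, fibronectin, had 3596, 3292 and 2359.7 CPM against 3138 to 5545 CPM (median 4927, log2 fold change −0.60, SE 0.07), with the control and PG/VG libraries of batch 4 inside the range of the others. Among the genes that rose was COL17A1, the transmembrane collagen of hemidesmosomes, with 4.28, 4.46 and 5.01 CPM against 1.42 to 2.25 CPM (median 1.56, log2 fold change 1.41, SE 0.17). Of 16 integrin genes 5 rose and 3 fell, led by the collagen-binding ITGA2 with 66.2, 90.96 and 76.8 CPM against 24.5 to 41.03 CPM (median 29.6, log2 fold change 1.32, SE 0.09). On the list of metalloproteinases and their inhibitors, which also holds PLAUR, 11 of 29 genes rose and 7 fell. Beside MMP1, MMP3, the stromelysin gene, had 16.5, 10.7 and 11.1 CPM against 2.35 to 3.62 CPM (median 2.64, log2 fold change 2.12, SE 0.15), and PLAUR, the urokinase receptor, rose too (log2 fold change 1.16, SE 0.07). TGF-beta response genes split evenly, 11 higher and 11 lower of 27: BHLHE40, a repressor also on the hypoxia list, had 58.6, 79.3 and 114 CPM against 17.4 to 28.4 CPM (median 23.98, log2 fold change 1.85, SE 0.07), whereas the ligand gene TGFB2 had 77.8, 87.4 and 82.4 CPM against 151 to 217 CPM (median 179.5, log2 fold change −1.12, SE 0.08, overlap 34.2%) and ID3, an inhibitor of helix-loop-helix factors, fell as well (log2 fold change −0.97, SE 0.06).

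Identity genes of the epithelial line shifted in part. Of 39 epithelial junction and keratin genes 17 fell and 10 rose, or 6 rose without the PG/VG library of batch 4. KRT7 had 510.4, 484 and 388 CPM against 701 to 1037 CPM (median 928, log2 fold change −0.97, SE 0.06), and KRT8 (log2 fold change −0.40, SE 0.06) and KRT18 (log2 fold change −0.58, SE 0.06, overlap 17.1%) fell by less. CDH1, E-cadherin, was at 0.169, 0.214 and 0.347 CPM against 0.696 to 1.59 CPM (median 0.984, log2 fold change −2.10, SE 0.40), all at the low end of detection. EPCAM, at 1.41, 1.93 and 1.59 CPM against 0.681 to 1.86 CPM (median 1.39), and KRT19, at 16.8, 22.5 and 16.96 CPM against 17.2 to 23.1 CPM (median 20.7), did not pass (adjusted p = 0.447 and 0.221 in edgeR). GRHL3, an epithelial transcription factor, rose, with 3.26, 5.06 and 4.66 CPM against 1.11 to 1.92 CPM (median 1.41, log2 fold change 1.58, SE 0.18). Genes of the mesenchymal transition list went both ways, with 9 of 25 lower and 5 higher. SNAI2, the repressor SLUG, had 23.8, 28.8 and 38.9 CPM against 7.11 to 11.3 CPM (median 9.26, log2 fold change 1.71, SE 0.10), and CD44, the hyaluronan receptor, 662, 699.8 and 674 CPM against 335 to 389 CPM (median 365, log2 fold change 0.90, SE 0.06). PDGFRB, a growth factor receptor, fell, with 21.2, 26.8 and 29.4 CPM against 59.4 to 76.3 CPM (median 67.1, log2 fold change −1.38, SE 0.07), and N-cadherin, CDH2, fell slightly (log2 fold change −0.33, SE 0.06). Vimentin, VIM, at 1114, 996 and 866 CPM against 822 to 1105 CPM (median 924) with an overlap of 24.6%, did not pass (log2 fold change 0.08, SE 0.07).

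Inflammatory genes of the line were higher in part in batch 4. Of 25 cytokine and chemokine genes tested, 11 rose and 3 fell (background 20.4% and 21.1%), with a median of 0.40. Without the control library of batch 4 the median was 0.249, and 1 fell without that library or without the PG/VG library of batch 2. IL1B, interleukin-1 beta, had 109, 81.4 and 80.9 CPM against 19.7 to 29.8 CPM (median 28.5, log2 fold change 1.81, SE 0.08, adjusted p = 7.69e-16 in edgeR). CXCL8, the neutrophil chemokine IL-8, had 9.91, 10.6 and 12.1 CPM against 3.901 to 5.55 CPM (median 4.73, log2 fold change 1.18, SE 0.11), and IL11 rose by a similar amount (log2 fold change 1.33, SE 0.12). The cytokine gene IL32 fell (log2 fold change −0.97, SE 0.11), and IL6 had 1.01, 1.37 and 1.93 CPM against 1.37 to 3.25 CPM (median 2.26, log2 fold change −0.65, SE 0.23), a call that 7 of 22 alternatives lost. Feedback targets of NF-kB rose in 10 of 20 and fell in 3. TNFAIP3, the A20 deubiquitinase, had 33.5, 32.3 and 42.2 CPM against 11.98 to 16.5 CPM (median 13.3, log2 fold change 1.37, SE 0.09), while NFKBIA, the IkB-alpha inhibitor, fell (log2 fold change −0.27, SE 0.07). Interferon-stimulated genes rose in 19 of 47 and fell in 9, with a median of 0.11, and 9 rose without the treatment term. Without the EC library of batch 4, 4 fell and the median was 0.187. IFIT2, an antiviral protein, had 32.5, 66.9 and 74.6 CPM against 9.66 to 21.5 CPM (median 18.1, log2 fold change 1.78, SE 0.08), IFIT3 52.2, 117 and 117 CPM against 18.3 to 38.08 CPM (median 32.02), and IFIT1 23.8, 40.7 and 37.1 CPM against 10.5 to 22.2 CPM (median 17.6). In all 3 the control library of batch 4 was the lowest of its batch and still above the other batches. The guanylate-binding protein gene GBP1 fell, with 38.2, 46.5 and 35.01 CPM against 86.4 to 103 CPM (median 95.3, log2 fold change −1.26, SE 0.07). MHC class I presentation genes went down more than up, 9 against 4 of 20, or 7 against 2 without the EC library of batch 4, among them the immunoproteasome gene PSMB9, which fell (log2 fold change −0.44, SE 0.10). Of 30 immediate early and AP-1 genes 14 rose and 3 fell, or 5 fell without the EC library of batch 4. PHLDA1, a growth factor-induced gene, had 363, 330.04 and 314 CPM against 137 to 196 CPM (median 172, log2 fold change 1.01, SE 0.07), FOS rose at a low level (log2 fold change 0.80, SE 0.21), and MYC, which drives growth, had 94.2, 80.1 and 67.1 CPM against 99.3 to 147 CPM (median 124, log2 fold change −0.64, SE 0.06).

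Glycolysis and lysosomal genes rose more often than they fell. Of 23 glycolysis genes 16 rose and 2 fell, or 1 without the control library of batch 3 or the PG/VG library of any batch, with a median of 0.31. SLC2A3, a glucose transporter, had 32.1, 32.6 and 40.7 CPM against 16.2 to 19.8 CPM (median 18.4, log2 fold change 0.95, SE 0.08), and PFKFB4, which sets the level of a glycolytic activator, rose too (log2 fold change 1.28, SE 0.10). Hypoxia genes rose in 18 of 30 and fell in 2, but without the EC library of batch 4 in 10 and 4. ANGPTL4, a lipoprotein lipase inhibitor, had 5.57, 11.7 and 17.1 CPM against 3.05 to 6.29 CPM (median 5.28, log2 fold change 1.25, SE 0.13) and CA12, a carbonic anhydrase, rose as much (log2 fold change 1.28, SE 0.13), whereas VEGFA, at 105, 111 and 133 CPM against 105 to 131 CPM (median 119.5), did not pass (log2 fold change −0.01, SE 0.08) except without the EC library of batch 4. Lysosomal genes rose in 34 of 48 and fell in 6 (background 20.4% and 21.1%), or fell in 3 without the EC library of batch 4, with a median of 0.31. NPC1, which exports cholesterol from lysosomes, had 270.1, 278 and 304 CPM against 118 to 150.3 CPM (median 133, log2 fold change 1.10, SE 0.06), and FUCA1, a fucosidase, rose as well (log2 fold change 0.93, SE 0.07). TFEB, a transcription factor of lysosomal genes, fell, with 5.403, 5.32 and 4.96 CPM against 9.49 to 12.02 CPM (median 10.6, log2 fold change −1.03, SE 0.12). Of 75 nuclear-encoded respiratory chain genes 11 rose and 12 fell, and these counts turned on single libraries: 22 fell without the control, 7 without the PG/VG and 6 without the EC library of batch 4, and 17 rose without the EC library of batch 2.

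Cytosolic ribosomal protein genes were lower in batch 4, 67 of 79 with 2 higher (background 21.1% and 20.4%), and a median of −0.35. With a library left out, 54 to 69 were lower, the fewest without the EC library of batch 4. Without its PG/VG library 58 were lower and 1 higher, and without the treatment term 48 were lower. The difference was smaller in control cells, where the median was −0.18, than in PG/VG (−0.43) and EC (−0.45). This difference between treatments was not tested for the list, and 0 of the 79 genes passed the interaction test described below. RPL12 had 456, 333 and 331 CPM against 501 to 651 CPM (median 530.4, log2 fold change −0.58, SE 0.06), and RPS18 662, 454 and 476 CPM against 712 to 895 CPM (median 768, log2 fold change −0.58, SE 0.06). In both genes the control library of batch 4 was the highest of its batch and still below the other batches. RPS26 rose, with 199, 161 and 158 CPM against 117 to 145 CPM (median 135, log2 fold change 0.37, SE 0.07). Ribosome biogenesis factors changed less, with 15 of 62 lower and 6 higher and a median of −0.077. DKC1, the pseudouridine synthase dyskerin, had 133, 125 and 104 CPM against 137 to 184 CPM (median 159, log2 fold change −0.42, SE 0.06).

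Among stress and xenobiotic genes, NRF2 targets fell in 13 of 30 and rose in 6. TXNRD1, thioredoxin reductase, had 608, 653 and 693 CPM against 1244 to 1462 CPM (median 1355, log2 fold change −1.07, SE 0.06), and NQO1, a quinone reductase, fell less (log2 fold change −0.73, SE 0.06). Of the genes that rose, AKR1B10, ABCC2 and OSGIN1 had log2 fold changes of 2.20, 1.21 and 1.11. HMOX1, heme oxygenase, rose less, with 28.5, 27.4 and 35.7 CPM against 18.4 to 29.9 CPM (median 18.6, log2 fold change 0.49, SE 0.08). Its control and PG/VG values in batch 4 lay inside the range of the others, and it lost its call without the treatment term. Of 11 genes tested on the aryl hydrocarbon receptor list 2 rose and 4 fell, or 4 and 3 without the EC library of batch 4. PTGS2 rose most and SLC7A5 fell most (log2 fold changes 1.09 and −0.94), and the receptor gene AHR fell (−0.35). CYP1A1 and CYP1B1, the cytochrome P450 genes under the receptor, did not pass (adjusted p = 0.314 and 0.129 in edgeR). CYP1A1 was called without the EC library of batch 4, with the highest log2 fold change of any alternative (0.86 against 0.26), and CYP1B1 without the PG/VG library of batch 3 or of batch 4. CYP1B1 had 355, 526 and 1188 CPM against 381 to 1638 CPM (median 484), with the EC libraries highest in each batch. MT2A, a metallothionein, had 469, 398 and 463 CPM against 193 to 292 CPM (median 209, log2 fold change 0.96, SE 0.07), and 5 of 12 metallothionein and zinc genes rose, or 3 without the PG/VG library of batch 4. Heat shock genes rose in 10 of 23 and fell in 3. HSPB8, a small heat shock protein, had 7.88, 12.6 and 13.4 CPM against 3.11 to 7.06 CPM (median 4.36, log2 fold change 1.27, SE 0.12), its relative HSPB1 fell (log2 fold change −0.75, SE 0.07), and the inducible HSPA1A, at 50.5, 54.6 and 47.1 CPM against 43.01 to 58.5 CPM (median 54.4), did not pass (log2 fold change −0.03, SE 0.08).

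Growth factor genes split by member. The EGF receptor ligands AREG and EREG rose: AREG, amphiregulin, had 20.4, 22.9 and 37.2 CPM against 6.67 to 8.49 CPM (median 7.67, log2 fold change 1.78, SE 0.10), and EREG, epiregulin, rose less (log2 fold change 1.33, SE 0.10). Of the receptors, ERBB3 fell, with 9.85, 8.79 and 11.9 CPM against 14.004 to 18.6 CPM (median 16.1, log2 fold change −0.68, SE 0.11), as did ERBB2 (log2 fold change −0.29, SE 0.06). In all, 5 of 13 genes of the EGF receptor family rose and 4 fell. The insulin-like growth factor system had 10 of 18 genes lower and 3 higher. IGFBP3, a carrier of insulin-like growth factors, had 58.03, 64.9 and 72.6 CPM against 99.7 to 152 CPM (median 117, log2 fold change −0.89, SE 0.13), and IGFBP4, another carrier, rose slightly (log2 fold change 0.22, SE 0.06). Wnt pathway genes rose in 12 and fell in 6 of 31. PORCN, which acylates Wnt ligands, had 33.99, 31.5 and 40.6 CPM against 10.7 to 21.2 CPM (median 16.7, log2 fold change 1.09, SE 0.09), and TCF7L1, a repressor at Wnt targets, fell (log2 fold change −0.84, SE 0.09). Notch genes rose in 7 of 25, or 4 without the EC library of batch 4, and fell in 5. HES4, a Notch target, had 28.4, 27.6 and 31.6 CPM against 38.09 to 49.97 CPM (median 45.98, log2 fold change −0.62, SE 0.09).

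Of 2234 long noncoding RNA genes tested 259 were higher and 245 lower in batch 4, and of 13052 protein-coding genes 2974 and 3033. The largest lncRNA rises by the rule were LINC02009, MANCR, LINC01629 and IGFL2-AS1. IGFL2-AS1 had 3.83, 4.03 and 6.398 CPM against 0.602 to 1.53 CPM (median 0.886, log2 fold change 2.31, SE 0.20). LINC02331, VLDLR-AS1, SLC7A11-AS1 and ENSG00000291110 fell by 1.76 to 2.45 on the log2 scale. The strand setting of the counting is not given in the sources used here. If strand was not used, reads over exons of both SLC7A11-AS1 (log2 fold change −1.78, SE 0.27) and SLC7A11 were left out of both counts.

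The direction of the main lists was the same in each treatment. Within control, PG/VG and EC, the median log2 difference between batch 4 and the mean of the other batches was −1.10, −0.96 and −0.97 for ATF4 targets. It was 0.59, 0.82 and 0.99 for p53 targets, 0.69, 0.63 and 0.95 for cholesterol synthesis genes, and −0.32, −0.43 and −0.40 for DNA replication genes. Each of these medians rests on 1 batch 4 library and 2 others.

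**Figure D4:**
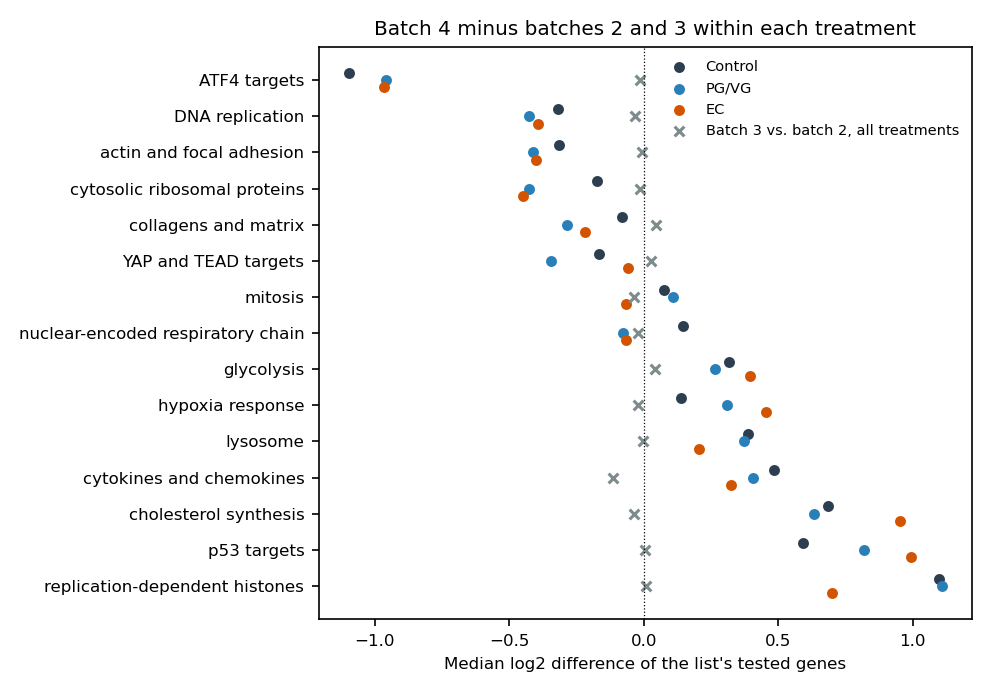
Median log2 difference of batch 4 minus batches 2 and 3 (x axis) for 15 gene lists (y axis), computed within control, PG/VG and EC libraries, with the median fold change of batch 3 vs. batch 2 as crosses. The medians of ATF4 targets lie between −1.10 and −0.96 and those of p53 targets between 0.59 and 0.99, and the crosses lie between −0.12 and 0.04.

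Whether the batch 4 difference itself changed with the treatment was tested with an interaction term. Each treatment has a single library in batch 4, so the spread in this test comes from the other batches only. The test cannot tell a batch difference that changes with treatment from a deviation of a single batch 4 library. In edgeR 22 of 16030 genes (0.137%) passed, and 1195 had an unadjusted p under 0.05. The immediate early gene EGR1, a growth factor-induced zinc finger, was named after its values were seen. It had 17.1, 25.8 and 47.2 CPM in batch 4, against 67.7 and 72.1 CPM in the other controls, 63.98 and 54.8 CPM in the other PG/VG libraries and 48.04 and 52.99 CPM in the other EC libraries (interaction adjusted p = 1.61e-07 in edgeR). EGR1 thus stood lower in the control of batch 4 than in the other controls, and close to the others in EC. ATF3, a stress-induced transcription factor named in the same way, had 28.03, 41.5 and 61.7 CPM in batch 4 against 39.4 to 47.9 CPM (median 43.8) in the others (interaction adjusted p = 0.000118 in edgeR). Its batch 4 value was below the other batches in control and above them in EC.

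**Figure D5:**
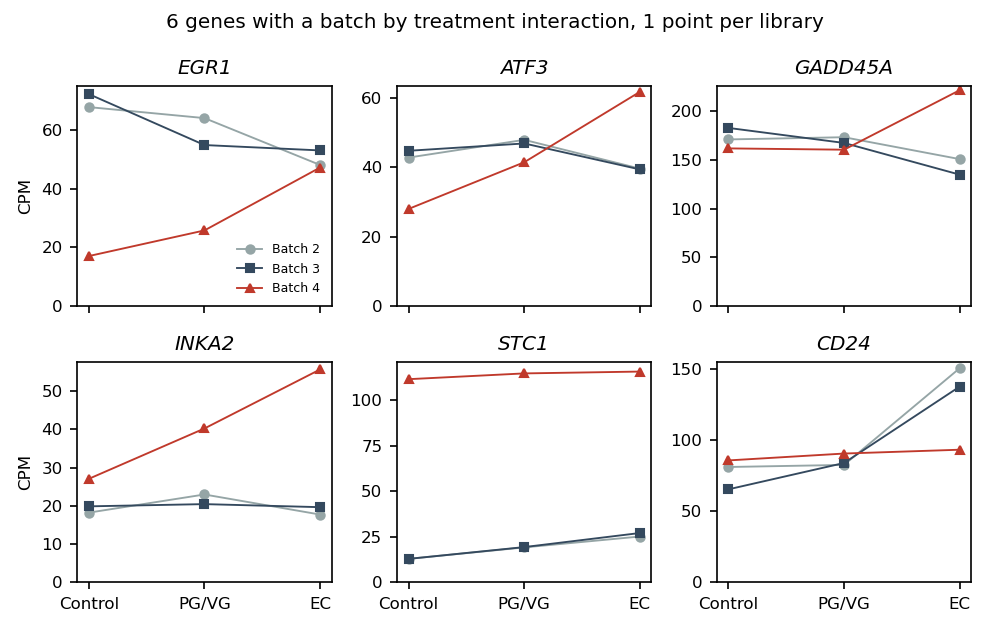
CPM (y axis) in control, PG/VG and EC libraries (x axis) of batches 2, 3 and 4 for 6 genes that passed the interaction test, 1 point per library, with lines joining the libraries of a batch. In batch 4, EGR1 rises from 17.1 to 47.2 CPM and ATF3 from 28.0 to 61.7 CPM from control to EC, STC1 lies between 112 and 116 CPM, and the lines of batches 2 and 3 run close together.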

How the data were processed

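Poly(A)-selected RNA of 9 BEAS-2B cultures was sequenced. The authors used fastp for trimming, STAR for alignment to GRCh38.p12 and featureCounts of Subread 2.0.4 for counting on exons, leaving out multi-mapping and multi-overlapping reads. Raw counts per gene, as the authors deposited them, cover 63187 genes in 9 columns and were not adjusted for batch, filtered or normalized, and all columns were used. The authors' own analysis removed the batch with ComBat-Seq and did not compare batches.

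A gene entered the test with 10 or more counts in 3 or more libraries, which 16030 genes had. Tests were run with edgeR 4.0.16 under R 4.3.3 (TMM, robust quasi-likelihood fit, treatment and batch 4 as terms, Benjamini-Hochberg adjustment over all genes, adjusted p under 0.05). Batches 2 and 3 were compared in a fit with 3 batch levels. The SE of a log2 fold change was taken as its size over the square root of F. Gene positions, biotypes and exon overlaps come from GENCODE 44, which held 62666 of the table's IDs.

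Genes named are the 12 largest rises and falls among called protein-coding genes with 20 or more counts in each library of the higher side and batch 4 beyond both other batches in each treatment, the 8 largest with a mean of at least 100 CPM, 4 lncRNAs each way, up to 4 called members of a list each way and 35 state genes. The batches, lists and genes were chosen with earlier results of these data known, and no list was given a p-value. A few named genes are not reported here. The steps were tested on simulated data. Alternatives were RLE or no scaling beyond library size, other filters, DESeq2 1.42.0, other model terms, each other batch alone, a GC and length correction with mgcv 1.9.3, thinned counts, and each library left out. Depth, 16168260 to 24917838 counts per library, limits genes under about 1 CPM.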

Additional observations from a re-analysis of the deposited data

Results flagged for a closer look

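The difference between batch 4 and batches 2 and 3 itself differed between control, PG/VG and EC in 22 genes by the interaction F test in edgeR, and these genes stand apart for that reason. DESeq2's likelihood ratio test called 16 genes, 12 of them among the 22. Of the 22, 2 (EGR1 and ATF3) passed whichever library of batches 2 and 3 was left out.

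In 10 genes the log2 difference of batch 4 from the other batches was lowest in control and highest in EC. Each such difference rests on a single batch 4 library, and a deviation of that library alone cannot be told apart. EGR1 went from −2.03 in control to −0.10 in EC (adjusted p = 1.61e-07 in edgeR), ATF3 from −0.64 to 0.64 (0.000118), INKA2 from 0.51 to 1.57 (0.0184) and GADD45A from −0.13 to 0.63 (0.0184). The others were JAG1 (0.0184), IGFBP3 (0.0254), MEX3B (0.0314), NEDD9 (0.0333), DUSP1 (0.0461) and DUSP8 (0.0489).

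In STC1 (0.0184), CD24 (0.0254) and TM4SF1 (0.0489) the difference was highest in control and lowest in EC. STC1 was higher in batch 4 by 3.10 in control and by 2.14 in EC on the log2 scale. In the remaining 9 genes PG/VG was the lowest or the highest of the 3. These were ROMO1 (0.0184), TOMM7 (0.0254), ADM (0.0288), GADD45B (0.0304), DHCR7 (0.0333), SERPINB2 (0.0333), UBL5 (0.0438), BEX3 (0.0469) and NDUFA1 (0.0489). ROMO1, TOMM7 and NDUFA1 encode small mitochondrial proteins, and in the PG/VG library of batch 4 they were lower by 0.78, 0.81 and 0.79 on the log2 scale. UBL5, BEX3 and GADD45B were lower there too (−0.44, −0.36 and −0.74), while ADM, DHCR7 and SERPINB2 were higher. The 75 nuclear-encoded respiratory chain genes had a median of −0.077 in PG/VG. Of ROMO1, TOMM7 and NDUFA1, DESeq2 called ROMO1 only.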

How the results depend on the processing

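The counts of genes higher and lower in batch 4 stayed within 1.5 times of the reported 3274 and 3376 under the 22 alternatives, from 2445 to 3883 higher and from 2455 to 3933 lower. The lowest counts of both directions came with an adjusted p under 0.01. With library size as the only scaling 57.8% of the called genes were higher, against 49.2% with TMM, and without the treatment term (no replicate block) 2534 were higher and 2542 lower. Between batches 3 and 2, DESeq2 called 1 gene, and the number ranged from 0 to 4 with a library left out, 4 without the PG/VG library of batch 2. The number of genes with a batch 4 by treatment interaction ranged from 3 to 214 when a library of batch 2 or 3 was left out: 3 and 5 without the control library of batch 2 or 3, 35 and 56 without the PG/VG library, and 177 and 214 without the EC library. The cause was not tested. The rule named 316 genes, of which 306 were called. Apart from the state genes it admitted called genes only, so that number was largely set beforehand. Of the 34 state genes tested 10 were not called. Of the 306 called genes, 249 kept call and direction under every alternative and 57 lost the call under at least 1. The fold change of 0 of the 306 changed sign. Of the 10 named genes that were not called, 6 changed sign and 5 gained a call under at least 1 alternative. The list medians of TGF-beta response, integrin, metalloproteinase, respiratory chain and EGF receptor family genes, all near 0, changed sign under some alternatives. Each batch 4 library is the only one of its treatment in batch 4, so leaving one out removes that treatment's own comparison. No paired analysis was possible because replicate numbers were given in the order of the samples and do not tie libraries of different batches together, other than through the treatment term.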

Other observations

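Among genes with a mean of at least 5 CPM, chromosome 4 had the highest median log2 fold change for batch 4, 0.081, with 128 genes higher and 74 lower of 387. The medians of the other chromosomes lay between −0.047 (chromosome 6) and 0.020 (chromosome 17). The difference between chromosomes was not tested. For batch 3 vs. batch 2 the median on chromosome 4 was −0.038. No gene was at 0 in all batch 4 libraries and at 20 counts or more in each of the other 6, or the reverse.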
